A study of Zea mays with 28 samples.

Results

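AOS1, AOC1, AOC2, OPR7 and OPR8 encode enzymes of jasmonate synthesis in maize, and MYC7 encodes a transcription factor of the jasmonate response. These 6 genes, chosen by name and gene identifier with earlier results of these data known, were followed through every treatment of the study. The counts of called members below are therefore descriptive. They are 6 of the 39625 genes in the count table, and all 6 were among the 22339 genes with enough reads to be tested. The study asked how maize responds to the grass specialist mite Oligonychus pratensis, to the generalist mite Tetranychus urticae and to mechanical wounding.

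Messenger RNA was measured in 28 samples of the inbred line B73, each from 1 leaf, in 7 groups of 4. Leaves carried a wax enclosure in all groups, controls included, and the controls received neither mites nor wounding. Leaves of the other 6 groups were collected 2 or 24 h after O. pratensis or T. urticae was added or after a single wounding with sandpaper, so mites fed until collection whereas the wounding was over at the start. Enclosures held 400 mites for 2 h and 200 mites for 24 h, so the number of mites and the time of exposure cannot be told apart. All leaves were harvested together, and the same 4 control leaves serve every comparison with controls. Library totals ran from 14721310 to 32891100 counted reads. The labelled tissue was checked with leaf genes: the Rubisco small subunit, the chlorophyll a/b binding proteins, phosphoenolpyruvate carboxylase and NADP-malic enzyme were far above 0 in all 28 samples. Their levels moved with treatment, and phosphoenolpyruvate carboxylase, for example, had a median of 22243 CPM (library-scaled counts, defined below) in controls, 13889 at 2 h after wounding and 11302 after 24 h of T. urticae. The part of such shifts in the results below was not tested, and in whole leaf segments fewer cells of a type and less RNA per cell cannot be told apart.

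Jasmonates are lipid hormones made from linolenic acid that rise when plant tissue is wounded or eaten. In the plastid, allene oxide synthase (AOS) converts the fatty acid hydroperoxide made by lipoxygenases (LOX) to an allene oxide, and allene oxide cyclase (AOC) closes its ring to give oxo-phytodienoic acid (OPDA). OPDA reductases (OPR) of the peroxisome then reduce OPDA, after which its side chain is shortened to give jasmonic acid, and in maize this step is assigned to OPR7 and OPR8. Jasmonoyl-isoleucine is perceived by the receptor COI, which leads to the breakdown of JAZ repressors, members of the TIFY family, and releases MYC transcription factors.

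Levels are CPM, the reads of a gene relative to the reads counted in its library, scaled between libraries by edgeR's TMM method, given as mean ± SD (n = 4 leaves). CPM are not divided by transcript length, so they compare samples for one gene and do not rank the genes. A gene is called here when its adjusted p in edgeR's quasi-likelihood test with Benjamini-Hochberg adjustment is at most 0.01 and its absolute log2 fold change is at least 1. Fold changes carry a standard error (SE) worked back from the quasi-likelihood test in the fit over all 28 leaves. It is the absolute log2 fold change divided by the square root of the test's F statistic. The intervals given below were built from this SE. It is not a standard error of a fitted coefficient, and for genes with few control reads it is a rough guide only. Replicates are separate leaves.

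At 2 h after wounding, 5 of the 6 genes, AOS1, AOC1, AOC2, OPR7 and MYC7, were called higher than in controls and stood at their highest mean of the study, where 17% of all tested genes were called higher. The same 5 were called lower at 24 than at 2 h after wounding, against 14.7% of all tested genes. OPR8 had its lowest mean 2 h after wounding instead. With T. urticae, AOS1, AOC1, AOC2 and OPR7 rose from 2 to 24 h, against 11.5% of all genes called higher between these times. The spread between group means differed widely among the members. The ratio of the highest to the lowest group mean was 558 for AOS1, 34.9 for AOC2, 13.8 for AOC1, 6.65 for OPR7, 6.18 for MYC7 and 2.24 for OPR8.

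**Figure D1:**
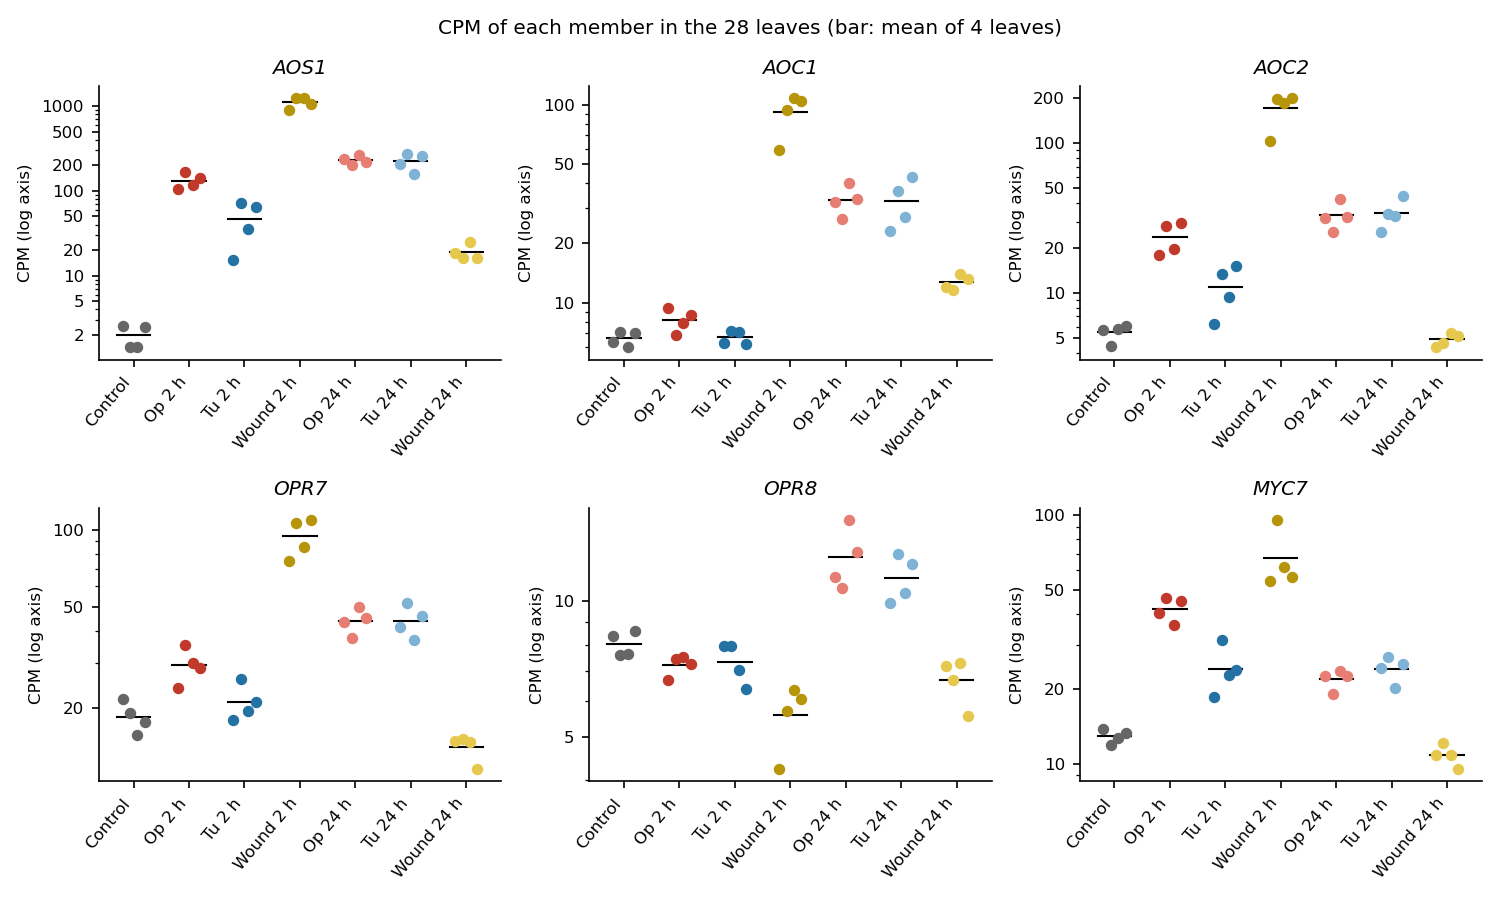
CPM on a log axis for the 6 genes in each of the 28 leaves, by group (Op, O. pratensis; Tu, T. urticae; points are leaves and bars are means of 4). AOS1 runs from 1.44 CPM in a control leaf to 1234 CPM in a leaf 2 h after wounding, whereas OPR8 stays between 4.25 and 15.2 CPM.

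AOS1 (GRMZM2G067225), the allene oxide synthase of the list, had the largest changes of the 6 genes in all 6 treatments. The 4 control leaves held 2.58, 1.44, 1.46 and 2.48 CPM (1.99 ± 0.624), from 35 to 68 reads each. Leaves 2 h after wounding held 911, 1233, 1234 and 1058 CPM (1109 ± 156). Every wounded leaf was far above every control leaf, and the log2 fold change was 9.13 (SE 0.42, adjusted p = 4.58e-16, edgeR). By 24 h the wounded leaves had fallen to 18.5, 16.3, 24.7 and 16.2 CPM (18.9 ± 3.98), still above all controls (log2 fold change 3.26, SE 0.35, adjusted p = 4.83e-08). AOS1 was the 1 member of 6 called higher at that time point, against 7.8% of all tested genes. From 2 to 24 h after wounding its level fell by 5.87 on the log2 scale (SE 0.35).

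With O. pratensis, AOS1 stood at 104, 167, 117 and 140.4 CPM at 2 h (132 ± 27.9). At 24 h it stood at 239.5, 202, 267 and 221 CPM (233 ± 27.6). Both groups lay far above the controls, with log2 fold changes of 6.06 (SE 0.37, adjusted p = 4.25e-12) and 6.87 (SE 0.38, adjusted p = 2.19e-13). The 24 h leaves were all above the 2 h leaves, but the difference of 0.81 (SE 0.29, adjusted p = 0.0313) was not called. With T. urticae, the leaves held 15.3, 72.3, 35.2 and 65.0 CPM at 2 h (46.9 ± 26.5), the widest relative spread of any group and gene of the list, with a coefficient of variation of 56.4%. At 24 h they held 207, 270.2, 157 and 258 CPM (223 ± 51.9). The rise over controls was 4.57 on the log2 scale at 2 h (SE 0.36, adjusted p = 1.61e-09) and 6.81 at 24 h (SE 0.38, adjusted p = 1.30e-13), and the 24 h level was 2.25 above the 2 h level (SE 0.30). In order of level, 2 h after wounding came first, then 24 h of either mite, 2 h of O. pratensis, 2 h of T. urticae, 24 h after wounding and controls. Neighbours in this order differed past the thresholds except between the 24 h mite groups and between these and 2 h of O. pratensis, although the leaves of 2 h of T. urticae and 24 h after wounding overlapped.

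AOC1 and AOC2 encode allene oxide cyclases, and they responded to different extents. AOC1 (GRMZM2G077316) held 6.33, 7.11, 5.96 and 7.03 CPM in controls (6.61 ± 0.557). After 2 h of mites it was hardly different, at 9.39, 6.88, 7.86 and 8.66 CPM with O. pratensis (8.20 ± 1.08) and 6.28, 7.22, 7.11 and 6.18 CPM with T. urticae (6.70 ± 0.543). These groups overlapped the controls, and the log2 fold changes were 0.32 (SE 0.19, 95% interval -0.06 to 0.70) and 0.02 (SE 0.19, interval -0.37 to 0.40). In leaves 2 h after wounding it stood at 59.3, 94.2, 107 and 105 CPM (91.4 ± 22.1), clear of the controls by 3.79 on the log2 scale (SE 0.19, adjusted p = 2.52e-15).

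At 24 h AOC1 was raised with both mites, at 32, 26.3, 40.3 and 33.2 CPM with O. pratensis (33.0 ± 5.76) and 23, 36.8, 27 and 43.0 CPM with T. urticae (32.4 ± 9.10). All 8 leaves were above all controls, with log2 fold changes of 2.32 (SE 0.18, adjusted p = 7.96e-11) and 2.30 (SE 0.18, adjusted p = 7.04e-11). At 24 h after wounding the leaves held 12.1, 11.6, 13.9 and 13.1 CPM (12.7 ± 1.05), above every control leaf by 0.94 on the log2 scale (SE 0.18, adjusted p = 2.46e-04), which is short of the fold change threshold. It was the 1 member of 6 called higher at 24 than at 2 h of O. pratensis (2.00, SE 0.18), against 6.76% of all tested genes. In order of level, 2 h after wounding came first, then 24 h of either mite, 24 h after wounding, and 2 h of O. pratensis, 2 h of T. urticae and controls, which did not differ past the thresholds. The step from 24 h after wounding to 2 h of O. pratensis was 0.62 on the log2 scale (adjusted p = 0.00959).

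AOC2 (GRMZM2G415793), in contrast, was already raised at 2 h with O. pratensis. Controls held 5.68, 4.48, 5.75 and 6.01 CPM (5.48 ± 0.683), and leaves with O. pratensis held 18, 28.2, 19.7 and 29.3 CPM at 2 h (23.8 ± 5.80). All 4 leaves were above all controls, with a log2 fold change of 2.12 (SE 0.25, adjusted p = 2.45e-07). With T. urticae at 2 h the leaves held 6.24, 13.4, 9.44 and 15.2 CPM (11.1 ± 4.02). These too were above every control leaf, although the first by little, and the log2 fold change of 1.02 (SE 0.25, adjusted p = 0.0109) just missed the adjusted p threshold. At 2 h after wounding AOC2 stood at 103, 197, 187 and 199 CPM (172 ± 46.0), a log2 fold change of 4.97 (SE 0.27, adjusted p = 9.41e-15).

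At 24 h the AOC2 values were 31.8, 25.6, 42.8 and 32.1 CPM with O. pratensis (33.1 ± 7.15) and 25.6, 34.0, 32.9 and 44.3 CPM with T. urticae (34.2 ± 7.70). The 2 species overlapped, and their log2 fold changes over controls were 2.59 (SE 0.25, adjusted p = 2.85e-09) and 2.65 (SE 0.25, adjusted p = 1.54e-09). At 24 h after wounding the leaves held 4.37, 4.69, 5.46 and 5.19 CPM (4.92 ± 0.488), within the range of the controls or just under it (log2 fold change -0.15, 95% interval -0.67 to 0.37). AOC2 went from its highest to its lowest group mean between 2 and 24 h after wounding, and fell by 5.12 on the log2 scale (SE 0.27). In order of level, 24 h of either mite and 2 h of O. pratensis did not differ past the thresholds. Controls did not differ past them from 2 h of T. urticae, next above, or from 24 h after wounding, next below, but these last groups differed from each other (1.17, SE 0.25, adjusted p = 7.02e-04).

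OPR7 and OPR8, the OPDA reductases, differed in direction at 2 h after wounding, but both had higher means after 24 h of mites than in controls. OPR7 (GRMZM2G148281) held 21.8, 19.1, 15.8 and 17.7 CPM in controls (18.6 ± 2.54). Leaves 2 h after wounding held 75.5, 106, 85.5 and 109 CPM (94.1 ± 16.3), well clear of the controls, with a log2 fold change of 2.34 (SE 0.15, adjusted p = 2.04e-13). With 2 h of mites it held 24.1, 35.3, 30.1 and 28.9 CPM with O. pratensis (29.6 ± 4.62) and 18, 26.1, 19.5 and 21.1 CPM with T. urticae (21.2 ± 3.51). The first group lay above all controls but under the fold change threshold (0.67, SE 0.14, adjusted p = 0.00149). The second overlapped the controls (0.18, 95% interval -0.11 to 0.48).

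OPR7 at 24 h stood at 43.5, 37.7, 49.8 and 45.0 CPM with O. pratensis (44.0 ± 4.98) and 41.8, 51.6, 37.2 and 45.9 CPM with T. urticae (44.1 ± 6.13). The log2 fold change over controls was 1.24 with each species (SE 0.14 in both, adjusted p = 7.95e-08 and 5.26e-08), and all 8 leaves were above all controls. A test against a 2-fold change (glmTreat in edgeR) did not call either rise (adjusted p = 0.15 and 0.107). At 24 h after wounding OPR7 held 15, 15.1, 14.8 and 11.6 CPM (14.1 ± 1.68). All 4 leaves were below the lowest control, but the log2 fold change of -0.40 (SE 0.14, adjusted p = 0.0357) did not pass. In order of level, 2 h after wounding came first and 24 h of either mite next. The step from 24 to 2 h of O. pratensis was 0.57 on the log2 scale (adjusted p = 0.00272), while neighbours among 2 h of O. pratensis, 2 h of T. urticae, controls and 24 h after wounding did not differ past the thresholds.

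OPR8 (GRMZM2G082087) changed the least and was called against controls in no treatment. Controls held 8.37, 7.59, 7.63 and 8.57 CPM (8.04 ± 0.506). At 2 h its leaves held 6.69, 7.44, 7.53 and 7.25 CPM with O. pratensis (7.23 ± 0.378) and 7.95, 7.95, 7.02 and 6.39 CPM with T. urticae (7.33 ± 0.764). The log2 fold changes of these groups were -0.16 (95% interval -0.42 to 0.11) and -0.14 (interval -0.40 to 0.13), with the O. pratensis leaves all just below the controls and the T. urticae leaves overlapping them. Leaves 2 h after wounding held 4.25, 5.71, 6.34 and 6.07 CPM (5.59 ± 0.933), all below all controls, at a log2 fold change of -0.52 (SE 0.13, adjusted p = 9.43e-04) that passed on adjusted p alone.

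At 24 h OPR8 held 11.3, 10.7, 15.2 and 12.8 CPM with O. pratensis (12.5 ± 1.98) and 9.91, 12.7, 10.4 and 12.1 CPM with T. urticae (11.3 ± 1.34). All 8 leaves were above all controls, with log2 fold changes of 0.64 (SE 0.12, adjusted p = 1.69e-04) and 0.49 (SE 0.12, adjusted p = 0.00165), again under the fold change threshold. At 24 h after wounding it held 7.19, 6.69, 7.29 and 5.56 CPM (6.68 ± 0.792). These leaves were all below the controls, at a log2 fold change of -0.27 with an adjusted p of 0.105 in edgeR. Against leaves 2 h after wounding, the 24 h mite groups passed both thresholds, with log2 differences (wounding over mite) of -1.16 against O. pratensis and -1.01 against T. urticae. No neighbours in the order of OPR8 levels passed both thresholds. OPR8 had from 107 to 393 reads per leaf, and reads shared with a near-identical copy were not counted, so the levels of OPR7 and OPR8 and of AOC1 and AOC2 are uncertain to that extent.

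MYC7 (GRMZM2G001930), the transcription factor, peaked at 2 h in O. pratensis and wounded leaves. Controls held 13.8, 11.9, 12.6 and 13.3 CPM (12.9 ± 0.796), a narrow band. With O. pratensis the leaves held 40.5, 46.5, 36.1 and 45.1 CPM at 2 h (42.0 ± 4.74) and 22.6, 19.1, 23.6 and 22.6 CPM at 24 h (22.0 ± 2.00). The 2 h leaves were all above the 24 h leaves, which were all above the controls. The log2 fold changes were 1.70 at 2 h (SE 0.16, adjusted p = 3.92e-09) and 0.77 at 24 h (SE 0.16, adjusted p = 2.55e-04), so that MYC7 was called at 2 h only. The change from 2 to 24 h was -0.94 (SE 0.15, adjusted p = 3.23e-05). It was called in 1 of 8 omissions of a single leaf, without replicate 3 of the 2 h group (-1.02).

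With T. urticae MYC7 held 18.5, 31.4, 22.7 and 23.9 CPM at 2 h (24.1 ± 5.37) and 24.4, 26.9, 20.1 and 25.1 CPM at 24 h (24.1 ± 2.88). Both groups lay above all controls at a log2 fold change of 0.90 (SE 0.16 in both, adjusted p = 2.66e-04 and 2.19e-05), under the fold change threshold, and they overlapped each other. Wounded leaves held 54.2, 95.7, 61.7 and 56.6 CPM at 2 h (67.0 ± 19.4) and 10.8, 12.1, 10.9 and 9.55 CPM at 24 h (10.8 ± 1.06). The rise at 2 h was 2.38 on the log2 scale (SE 0.16, adjusted p = 7.25e-13), and the 24 h leaves overlapped the controls (-0.25, 95% interval -0.57 to 0.07). In order of level, 2 h after wounding, 2 h of O. pratensis and the next group, 24 h of T. urticae, were each apart on adjusted p but by under 1 on the log2 scale, and 24 h of T. urticae, 2 h of T. urticae and 24 h of O. pratensis did not differ past the thresholds.

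**Figure D2:**
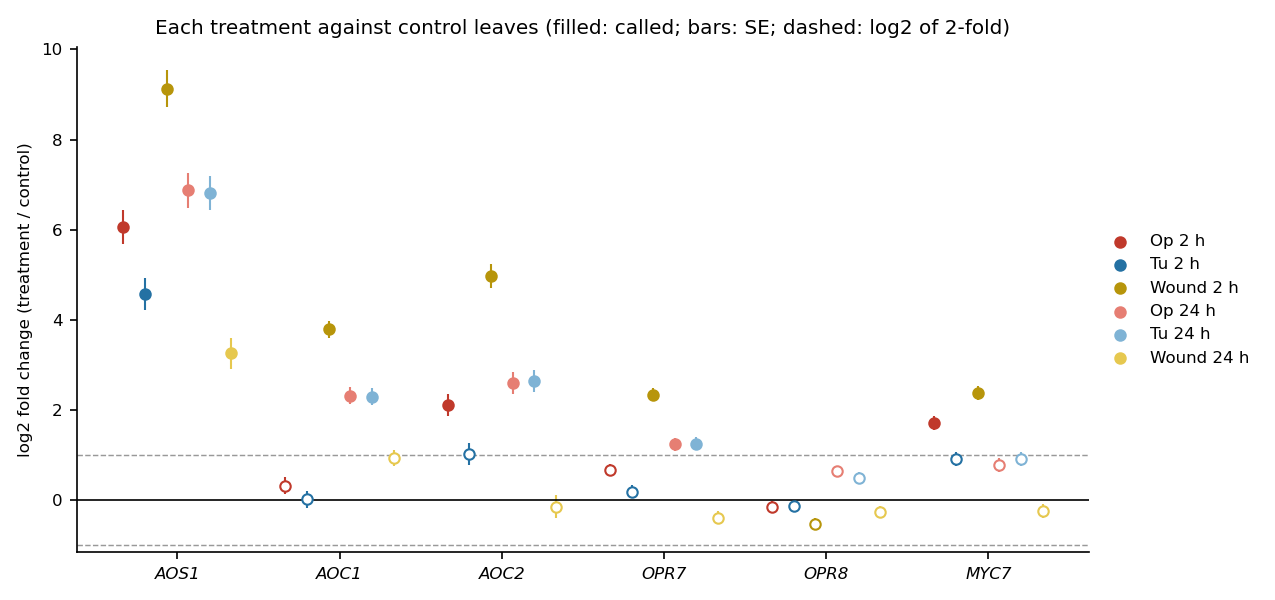
Log2 fold change against controls for the 6 genes in the 6 treatments (points, with SE as bars; filled points were called, open points were not; dashed lines mark a log2 fold change of 1 and -1). AOS1 is filled in all 6 treatments, from 3.26 to 9.13, and OPR8 in none.

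Counted over the list, O. pratensis called 3 of 6 genes higher than controls at 2 h and 4 of 6 at 24 h, against 5.25% and 12.3% of all tested genes. For T. urticae these were 1 of 6 and 4 of 6, against 2.47% and 15%. The median log2 fold change of the 6 genes was 3.08 at 2 h after wounding, 1.78 and 1.77 after 24 h of O. pratensis and T. urticae, 1.18 and 0.54 at 2 h with these mites, and -0.20 at 24 h after wounding, while that of all tested genes lay between -0.03 and 0.04.

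In the 2 h T. urticae group, replicate 1 held the lowest AOS1, AOC2, OPR7 and MYC7 values of its group, and replicates 2 and 4 the highest AOS1 and AOC2 values. Without replicate 1, 3 members were called against controls rather than 1, with AOC2 at 1.22 (adjusted p = 9.42e-04) and MYC7 at 1.02 (adjusted p = 4.60e-05) joining AOS1 at 4.87. Replicate 1 was picked for its low values, so leaving it out had to raise these fold changes. Over all 8 omissions of a single leaf, AOC2 ran from 0.83 to 1.22, with adjusted p in edgeR of up to 0.080. MYC7 ran from 0.75 to 1.02 over the same omissions.

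To ask whether the specialist and the generalist differed, both were compared directly at each time. At 2 h, 2 of 6 genes were called, both higher with O. pratensis, against 0.68% of all tested genes called in either direction. AOS1 was higher by 1.49 on the log2 scale (SE 0.29, adjusted p = 0.00456), with its 4 O. pratensis leaves all above the T. urticae leaves. AOC2 was higher by 1.10 (SE 0.24, adjusted p = 0.00956), likewise with no overlap. MYC7 was higher by 0.80 (SE 0.15, adjusted p = 0.00358), again without overlap but under the fold change threshold. The differences were 0.48 for OPR7 (95% interval 0.19 to 0.78, adjusted p = 0.090), 0.30 for AOC1 (interval -0.08 to 0.69) and -0.02 for OPR8 (interval -0.29 to 0.25).

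Both calls depended on single leaves. AOS1 was no longer called without O. pratensis replicate 2 (1.37, adjusted p = 0.0246 in edgeR) or 4 (1.47, 0.0127), or without T. urticae replicate 1 (1.21, 0.0105) or 3 (1.39, 0.0347). It missed the adjusted p threshold there and not the fold change threshold. O. pratensis replicate 2 was the smallest library of the series, with 14721310 reads. AOC2 was no longer called without O. pratensis replicate 2 (1.02, adjusted p = 0.0457 in edgeR), 3 (1.19, 0.0107) or 4 (0.98, 0.0417), or without T. urticae replicate 1 (0.91, 0.0628) or 3 (1.04, 0.0590). With only these 2 groups in the fit neither was called, with adjusted p of 0.125 for AOS1 and 0.10 for AOC2.

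At 24 h none of the 6 genes was called between species, where 0.9% of all tested genes were. None of the 6 had an unadjusted p under 0.05, and DESeq2 called 0 as well. The differences (O. pratensis over T. urticae, log2) were 0.06 for AOS1 (95% interval -0.52 to 0.64), 0.02 for AOC1 (-0.32 to 0.36), -0.05 for AOC2 (-0.51 to 0.41), 0.00 for OPR7 (-0.29 to 0.28), 0.15 for OPR8 (-0.11 to 0.40) and -0.14 for MYC7 (-0.45 to 0.18). The interval was widest for AOS1, and a difference of up to 0.64 in that gene lies within it.

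The change of the species difference between the times was tested as an interaction, in which 0.739% of all genes were called. None of the 6 members was called in edgeR and 0 in DESeq2, although 4 had an unadjusted p under 0.05. MYC7 came nearest (-0.94, SE 0.22, adjusted p = 0.0150), followed by AOC2 (-1.15, SE 0.32, adjusted p = 0.0508) and AOS1 (-1.43, SE 0.40, adjusted p = 0.0512). In 1 of 16 omissions of a single leaf, that of T. urticae 2 h replicate 2, MYC7 was called (-1.12, adjusted p = 0.00206).

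**Figure D3:**
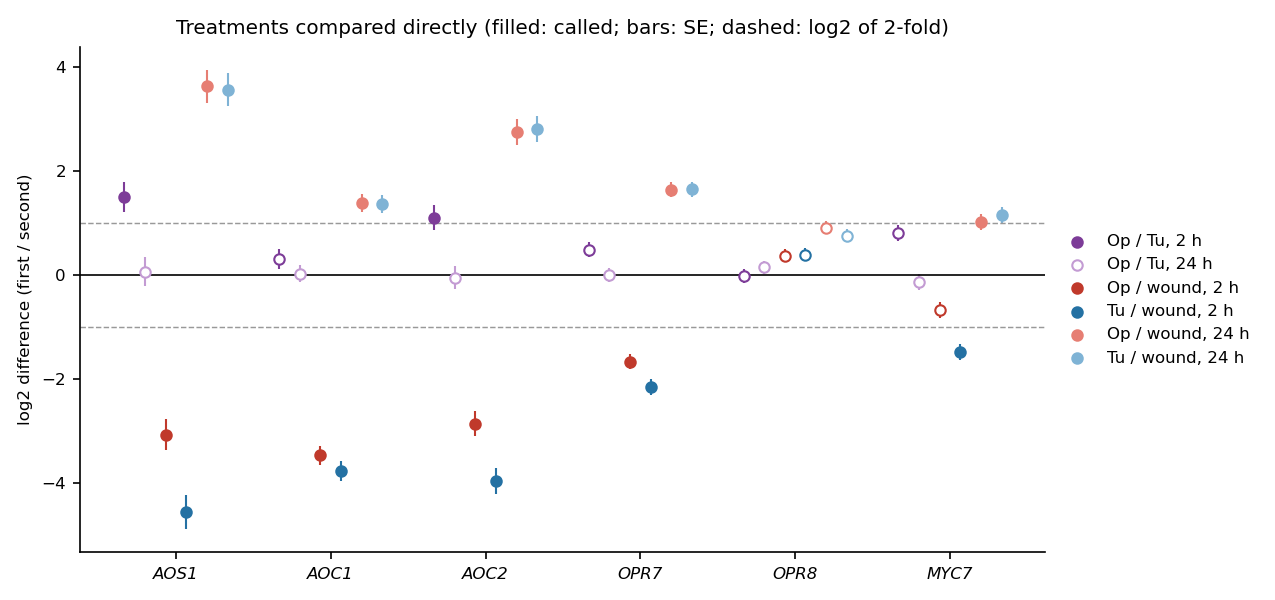
Log2 difference between treatments for the 6 genes (points, with SE as bars; filled points were called, open points were not; dashed lines mark 1 and -1). Mite groups lie below wounding at 2 h in all genes but OPR8 and above wounding at 24 h in all 6, and the 2 species lie near 0 at 24 h.

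Mites were then set against wounding at each time. At 2 h, 4 of 6 members were called lower with O. pratensis than with wounding, against 12.5% of all tested genes, with log2 differences of -3.07 for AOS1, -3.47 for AOC1, -2.86 for AOC2 and -1.67 for OPR7 (SE 0.14 to 0.31). With T. urticae 5 of 6 were called lower, against 15%, with log2 differences of -4.56, -3.77, -3.96 and -2.15 for the same genes and -1.48 for MYC7. MYC7 with O. pratensis was the closest of these to wounding, at -0.67 (SE 0.15, adjusted p = 4.68e-04). OPR8 was higher with mites than with wounding, by 0.37 with O. pratensis and 0.39 with T. urticae, with adjusted p of 0.0194 and 0.0126.

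At 24 h AOS1, AOC1, AOC2, OPR7 and MYC7 stood above wounding with both mites. With O. pratensis 5 of 6 members were called higher than with wounding, against 7.73% of all genes, by 3.62 for AOS1, 1.38 for AOC1, 2.74 for AOC2, 1.64 for OPR7 and 1.02 for MYC7. With T. urticae the same 5 genes were called, against 8.49%, by 3.56, 1.36, 2.80, 1.64 and 1.15. OPR8 was above wounding by 0.90 and 0.76, past the adjusted p threshold alone. The MYC7 call with O. pratensis rested on single leaves, since it fell to 0.98 without O. pratensis replicate 3 and to 0.96 without wounding replicate 4, and it was 0.98 with only these 2 groups in the fit.

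From 2 to 24 h after wounding the changes of the 5 called members were -5.87 for AOS1, -2.85 for AOC1, -5.12 for AOC2, -2.73 for OPR7 and -2.63 for MYC7. With T. urticae the 4 called members changed by 2.25 for AOS1, 2.28 for AOC1, 1.63 for AOC2 and 1.06 for OPR7. The OPR7 change was 0.99 without 2 h replicate 1 and 0.98 without 24 h replicate 2. With O. pratensis only AOC1 was called (2.00). The others changed by 0.81 for AOS1, 0.48 for AOC2, 0.57 for OPR7, 0.79 for OPR8 and -0.94 for MYC7. A further test asked whether the mean of both mite species and wounding changed unlike each other between 2 and 24 h. There 5 of 6 members were called, all towards a relative rise with mites, against 19.5% of all genes called in that direction. The sizes were 7.40 for AOS1 (SE 0.40), 6.18 for AOC2 (SE 0.31), 4.99 for AOC1 (SE 0.22), 3.55 for OPR7 (SE 0.18) and 2.16 for MYC7 (SE 0.19). For OPR8 it was 0.45 (SE 0.16, adjusted p = 0.0142). A relative rise need not be a rise with mites. MYC7 rose with neither species (-0.94 with O. pratensis, 0.00 with T. urticae) while it fell after wounding.

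Because AOC1 and AOC2 are a pair of copies with one function, as are OPR7 and OPR8, the share of each pair's reads that fell to one gene was computed per leaf. A share depends on the lengths of both transcripts, so it was compared between groups and not read as a ratio of molecules. AOC2 took 47.3, 38.6, 49.1 and 46.1% of the pair's reads in control leaves (45.3 ± 4.60%). It took 65.6, 80.4, 71.4 and 77.2% after 2 h of O. pratensis (73.7 ± 6.50%) and 26.6, 28.8, 28.2 and 28.3% at 24 h after wounding (28.0 ± 0.963%). These lay on opposite sides of the controls, with no overlap. The other groups were at 60.7 ± 9.28% (2 h of T. urticae), 65.1 ± 1.97% (2 h after wounding), 49.9 ± 1.06% (24 h of O. pratensis) and 51.6 ± 2.91% (24 h of T. urticae).

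The share tests reuse the counts tested above and were added after seeing the data, so they are not independent evidence. Against controls, 5 of the 6 AOC2 shares reached p = 0.0286 in a two-sided exact permutation test, the smallest that 4 leaves against 4 allow (0.0381 adjusted over the 12 share tests). The exception was 24 h of T. urticae (exact p = 0.0571, adjusted 0.0686). Leaves with 24 h of O. pratensis cleared the controls narrowly, with a lowest share of 49.17% against a highest control of 49.11%. Their mean difference from controls, 4.65 percentage points, was smaller than the 6.33 points of 24 h of T. urticae. The shares of both species were not compared directly. OPR7 took 72.2, 71.6, 67.4 and 67.4% of the reads of its pair in controls (69.7 ± 2.63%) and 94.7, 94.9, 93.1 and 94.7% at 2 h after wounding (94.3 ± 0.839%). The wounded leaves were all far above the controls. With O. pratensis the OPR7 share was 80.2 ± 1.79% at 2 h and 77.9 ± 1.09% at 24 h, with T. urticae it was 74.1 ± 3.49% and 79.6 ± 1.19%, and it was 67.9 ± 1.01% at 24 h after wounding. The exact permutation test of 4 leaves against 4 gave exact p = 0.0286 (adjusted 0.0381) for 2 h after wounding, both O. pratensis groups and 24 h of T. urticae, but 0.114 for 2 h of T. urticae and 0.314 for 24 h after wounding (adjusted 0.125 and 0.314).

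**Figure D4:**
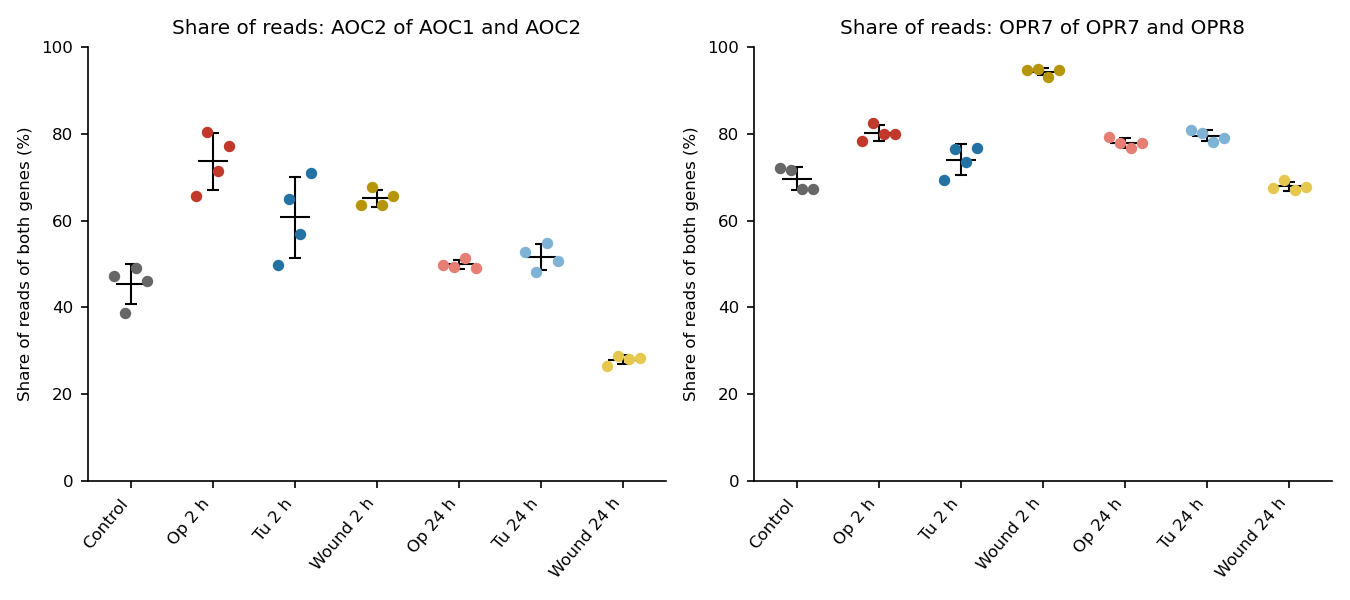
Share of a pair's reads, in percent, that belonged to AOC2 (of AOC1 and AOC2) and to OPR7 (of OPR7 and OPR8) in each of the 28 leaves (points are leaves; bars are mean ± SD of 4). The AOC2 share ranges from 26.6 to 80.4%, and the OPR7 share is highest 2 h after wounding at 93.1 to 94.9%.

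Other genes of the pathway were taken from a list set by gene name, of which 40 could be paired with the count table and all 40 were tested: 3 further AOS genes, 5 further OPR genes, 21 TIFY genes and 11 LOX genes. The list was chosen with results of these data known, and a shared name does not show that a gene acts in jasmonate synthesis. Of the 40, 29 were called higher at 2 h after wounding and 4 after 24 h, against 17% and 7.8% of all tested genes. With O. pratensis 25 were called higher at 2 h and 21 at 24 h, against 5.25% and 12.3%, and with T. urticae 17 and 25, against 2.47% and 15%. OPR6, named after its value was seen, was the 1 listed gene called lower in any of these, where 8.47% of all tested genes were called lower at 2 h after wounding. It went from 53.2 ± 7.09 CPM in controls to 20.1 ± 1.75 CPM at 2 h after wounding (log2 fold change -1.41, SE 0.10, adjusted p = 3.82e-12). The median log2 fold change of the 40 genes was 3.38 at 2 h and 0.07 at 24 h after wounding, 1.62 and 1.45 at these times for O. pratensis, and 0.83 and 1.43 for T. urticae.

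Of 11 LOX genes, 7 were called higher at 2 h after wounding (against 17% of all tested genes) and none 24 h after wounding (7.8%). Not all of them feed AOS. The paper places LOX3 and LOX5 in a different clade from the LOX enzymes that start jasmonate synthesis. It gives LOX1 both activities, with an unknown function. With O. pratensis 6 were called at 2 h (5.25%) and 5 at 24 h (12.3%), and with T. urticae 5 (2.47%) and 8 (15%). LOX5 went from 1.86 CPM in controls to 815 CPM at 2 h after wounding (8.78, SE 0.55, adjusted p = 2.38e-13). LOX1 had its highest mean with T. urticae rather than wounding, going from 2.08 CPM in controls to 126 CPM at 2 h after wounding and 755 CPM after 24 h of T. urticae (8.49, SE 0.44, adjusted p = 3.32e-14). LOX3 stood at 0.416 CPM in controls and 74.0 CPM at 2 h after wounding (7.42, SE 0.52). The paper calls the role of some maize AOS genes in jasmonate synthesis uncertain. Among the further AOS genes, AOS2 had 7 reads over the 4 controls (0.0661 CPM). It reached 31.3 CPM at 2 h after wounding (8.74, SE 0.61, adjusted p = 1.57e-12) and 26 CPM after 24 h of T. urticae. AOS3 rose from 0.371 to 4.92 CPM at 2 h after wounding (3.74, SE 0.30). AOS4 was called in none of the 6 treatments.

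Of the 5 other OPR genes, 3 were called higher and 1 lower at 2 h after wounding, against 17% and 8.47% of all tested genes. OPR2, OPR1 and OPR3 had larger log2 fold changes than OPR7 in that group. The paper names OPR7 and OPR8 as the genes that the OPDA step requires in maize, and a role of the others in it was not tested. OPR2 stood at 0.948 CPM in controls, 393 CPM at 2 h after wounding (8.68, SE 0.36, adjusted p = 1.05e-16) and 17.6 CPM at 24 h after wounding (4.20, SE 0.33). OPR1 stood at 1.08, 382 and 22.7 CPM in the same groups (8.43, SE 0.40, and 4.36, SE 0.37). They were the 2 OPR genes called at 24 h after wounding, when OPR7 and OPR8 were not. OPR3 had 8 control reads and reached 4.97 CPM at 2 h after wounding (5.91, SE 0.58).

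Of the 21 TIFY genes, the family that holds the JAZ repressors, 17 were called higher at 2 h after wounding (against 17% of all tested genes) and 2 at 24 h after wounding (7.8%). After 2 h of O. pratensis and T. urticae 15 and 11 were called (5.25% and 2.47%), and 11 after 24 h of each mite (12.3% and 15%). TIFY29 had no read in the 4 control libraries. Taking 3 reads over these libraries as the floor, it was at least 1828-fold higher at 2 h after wounding (54.2 ± 15.2 CPM), at least 381-fold after 2 h of O. pratensis and at least 96.9-fold after 2 h of T. urticae. TIFY9 rose from 0.222 to 150.4 CPM at 2 h after wounding (9.36, SE 0.45, adjusted p = 1.15e-15). TIFY10, with 3 control reads, reached 36.8 CPM in that group.

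**Figure D5:**
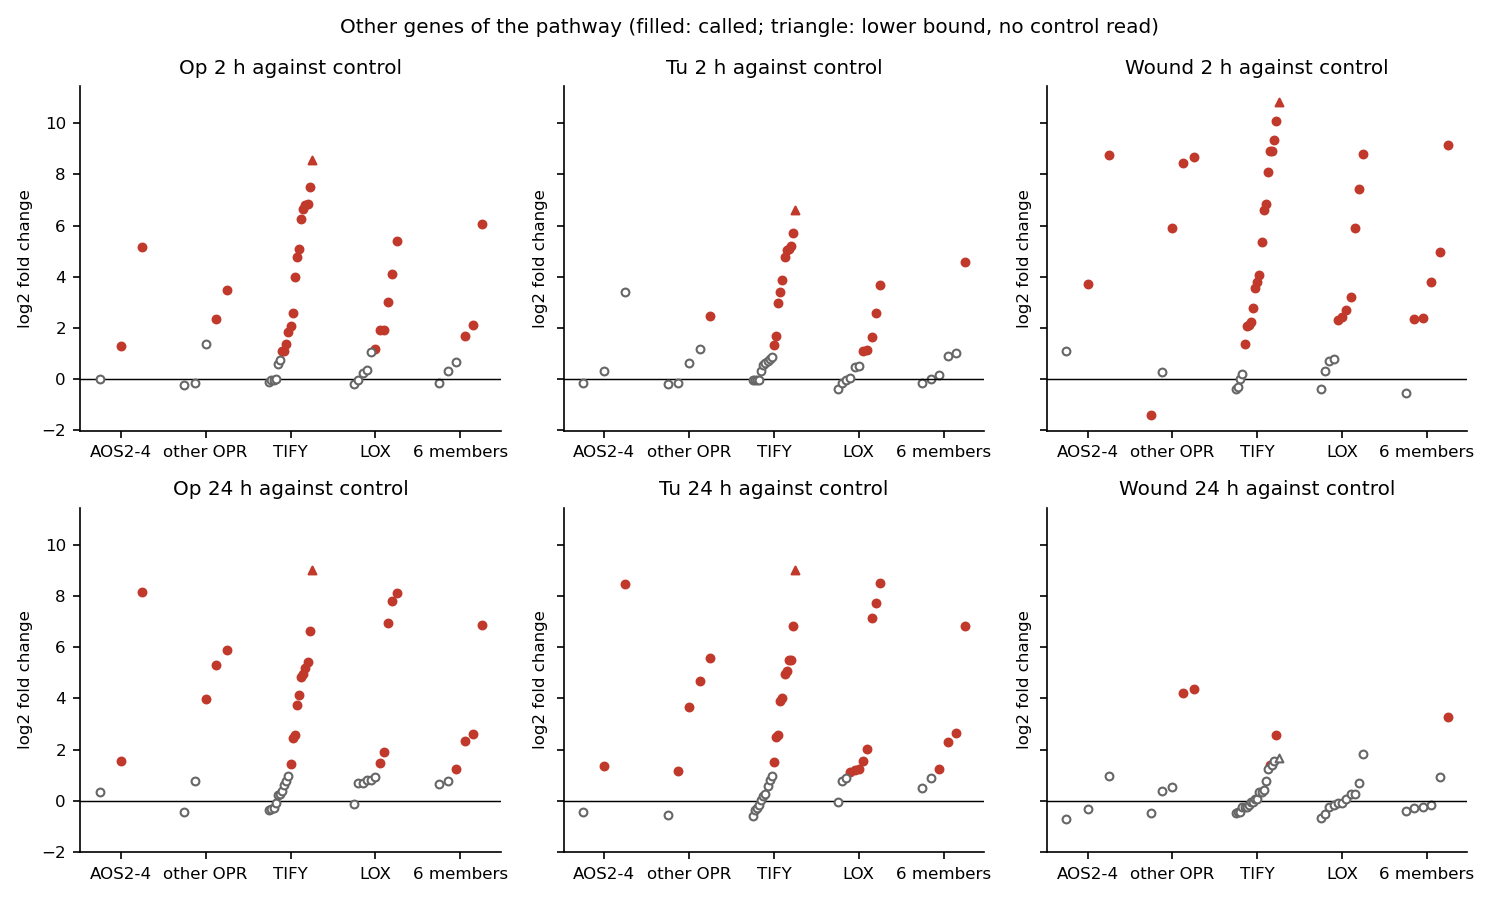
Log2 fold change against controls of every gene of the pathway list, by class, and of the 6 members, in each of the 6 treatments (1 point per gene; filled points were called; triangles show the lower bound for TIFY29, which had no control read). At 24 h after wounding 4 of the 40 listed genes are filled, and at 2 h after wounding 29 above 0 and 1 below.

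For each member the 2 most similar genes were found among the 17456 tested genes with an average log2 CPM of at least 1. Likeness was the root mean square (RMS) difference in log2 CPM over the 28 leaves after centring each gene, and it is a description across leaves that share treatments. AOS1, whose own RMS around its mean was 2.78, was nearest to GRMZM2G170017 (0.48) and GRMZM2G493395 (0.65), the latter listed with the synonym dxs2. The second went from 1.43 CPM in controls to 487 CPM at 2 h after wounding and, with T. urticae, 328 CPM at 24 h. The nearest other member to AOS1 was AOC2, at 1.43. AOC1 was nearest to GRMZM2G031177 and GRMZM2G479423 (0.32 each), and AOC2 to GRMZM2G024476 and GRMZM2G166738 (0.43 each). OPR7 had GRMZM2G161337 (0.22) and GRMZM2G052671 (0.24), and MYC7 had GRMZM2G061447 and GRMZM2G097704 (0.19 each). OPR7 and MYC7 were each other's nearest member (0.52). OPR8, with an own RMS of 0.41, was nearest to GRMZM2G312970 and GRMZM2G433433 (0.18 each) and stood 0.94 from OPR7, its nearest member. GRMZM2G433433 was also lowest at 2 h after wounding, at 13.1 CPM in controls, 10.5 CPM at 2 h after wounding and 20.1 CPM after 24 h of O. pratensis.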

How the data were processed

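Leaf RNA was sequenced as strand-specific poly(A) libraries. The authors aligned reads with STAR 2.5.2b to B73 RefGen v3, counted uniquely aligned reads per gene with HTSeq 0.6.0 and deposited these counts without normalization. Reads shared by near-identical copies are missing. Library totals were 14721310 to 32891100 reads. Groups came from the sample labels.

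Counts were analysed with edgeR 4.0.16 in R 4.3.3: filterByExpr, TMM, and 1 quasi-likelihood fit of all 28 samples with a mean per group, on 22339 of 39625 genes. Thresholds were adjusted p 0.01 and log2 fold change 1. Log2 CPM used a prior count of 2. Shares were tested by exact permutation (scipy 1.17.1), counting error included in the spread between leaves. The script was tested on simulated data. Alternatives, DESeq2 1.42.0 among them, are in the closing section.

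The members and lists were chosen with earlier results of these data known. Named genes were the 6 members, their 2 nearest genes and, per class of the pathway list, at most 3 called genes with the largest rise. OPR6, called lower, and AOS4, called in no treatment, were named outside this rule. Names came from RefSeq's Zm-B73-REFERENCE-NAM-5.0 table, another assembly, so no coordinates are given. It matched 19059 identifiers, 521 of them ambiguously, and all 6 members. The list also sought further AOC, MYC, JAR, COI, NINJA, CYP94, OPCL, ACX and KAT genes by name and matched none.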

Additional observations from a re-analysis of the deposited data

Results flagged for a closer look

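In 2 of 42 groups of 4 leaves, over the 6 genes and 7 groups, 1 leaf stood apart from the other 3, by the ratio of its gap to the group's range (Dixon's test), and chance flags about 1 in 20 such groups. At 2 h after wounding, AOC2 was lowest in replicate 1, at 103 CPM against 187 to 199 CPM. At 24 h after wounding, OPR7 was lowest in replicate 4, at 11.6 CPM against 14.8 to 15.1 CPM. No call against controls changed when either leaf was left out.

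The change from 2 to 24 h differed between the mean of both mite species and wounding, by the interaction test in edgeR's fit. The sizes were 7.40 for AOS1 (log2 scale), 6.18 for AOC2, 4.99 for AOC1, 3.55 for OPR7 and 2.16 for MYC7.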

How the results depend on the processing

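All alternatives kept the direction of every called value of the 6 genes. Requiring a change significantly above 2-fold (glmTreat) lowered the called members to 0 between species at 2 h, 3 and 3 for O. pratensis and T. urticae against wounding at 24 h, 2 for T. urticae from 2 to 24 h, and 3 for each mite at 24 h against controls. Fitting only the groups compared left 0 between species at 2 h and ended the MYC7 call for O. pratensis against wounding at 24 h. The 2 h T. urticae count against controls rose from 1 to 2 with no expression filter, with an adjusted p of 0.05, with no fold change threshold and with DESeq2 without a prior. Without a fold change threshold, the counts rose to 4 for O. pratensis from 2 to 24 h (5 for T. urticae) and 2 for 24 h after wounding, to 6 for each mite at 24 h and for 2 h after wounding against controls, to 4 for 2 h of O. pratensis, to 3 between species at 2 h, and against wounding to 5 for O. pratensis at 2 h and 6 for each mite at 24 h. RLE size factors changed no call, nor did DESeq2 with its prior in the comparisons with controls, where alone it was run.

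Leaving out 1 leaf at a time, called members ranged from 1 to 3 for 2 h of T. urticae against controls, 0 to 2 between species at 2 h, 4 to 5 for O. pratensis against wounding at 24 h, 1 to 2 for O. pratensis and 3 to 4 for T. urticae from 2 to 24 h, and 0 to 1 for the interaction of species and time. The other counts did not move. The difference in AOC2 share from controls ranged from 26.1 to 31, 12 to 19.1 and 17.6 to 21.1 percentage points 2 h after O. pratensis, T. urticae and wounding, and 2.43 to 5.92, 4.11 to 7.60 and -19.5 to -16.0 after 24 h. For OPR7 it was 9.74 to 11.4, 3.50 to 5.98 and 23.9 to 25.6 after 2 h, and 7.51 to 9.13, 9.17 to 10.8 and -2.51 to -0.889 after 24 h. With 3 leaves against 4 the smallest exact p is 0.0571. Share tests were added after seeing the data.

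A replicate block changed none of 102 calls, with 3 members called after 2 h of O. pratensis and 5 at 2 h after wounding, for example. Same-numbered leaves had a median correlation of 0.13, 47 of 84 pairs were over 0.1, and 19 of 28 leaves correlated best with their own number, which is a hint of pairing in the data. The study used a randomized block design, but no source used here ties the numbers to its blocks and not every pair passed 0.1, so neither the reported fit nor the share tests have a block. A prior count of 0.5 kept the 2 nearest genes of every member, while 7 group means in place of 28 leaves kept 0 or 1.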
